A study of Mus musculus with 39 samples.

Results

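The genes followed here are 35 that carry glucose through skeletal muscle: the transporters that admit glucose and release lactate, the enzymes of glycolysis, those that make and break glycogen, and the proteins that steer them. They were taken from a list of names, matched to the 46078 genes of the count files, and all 35 were found. Muscle stores glucose as glycogen. Glycogen phosphorylase, switched on by phosphorylase kinase, releases it for glycolysis, whose end product pyruvate is reduced to lactate when energy is needed fast. Fast fibres depend on this route and carry muscle forms of several enzymes, such as Pfkm, Pgam2 and Eno3, in place of the forms used by most other tissues.

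The muscle was the gastrocnemius, the main calf muscle, of C57BL/6 mice, taken after 7, 14, 21 or 28 days of Lewis lung carcinoma (LLC) growth, called weeks 1 to 4. LLC is a mouse lung tumour line used as a model of cachexia, the wasting of muscle and fat that can accompany cancer. The cells were injected in the flank at 8 weeks of age. Control mice were injected with phosphate-buffered saline (PBS) and are listed at day 0 of tumour development. By the submitters' account wasting was evident at week 4. Counts from RNA sequencing were used for 8 week 4 libraries, 7 each from weeks 3 and 2, and 8 each from week 1 and PBS. The labels give no allele, transgene or drug in any group, and no age at collection, so age and tumour time cannot be told apart among weeks 1 to 4. They do not state whether each sample is another animal, so the p-values rest on the spread between samples, which may be technical.

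Libraries held 13356756 to 24801565 reads in genes. The sequencing lanes, read from the names of the count files, were spread unevenly: week 4 was in lanes 2 and 4, PBS in lanes 5 and 6, and weeks 1 to 3 in all 4 lanes. Week 4 and PBS shared no lane, so between them tumour time and lane cannot be told apart. Week 4 was therefore also set against the 12 libraries of weeks 1 to 3 from lanes 2 and 4, with a term for lane. Within weeks 1 to 3, lane 2 differed from the other lanes in 24.2% of genes tested, and of the 35 genes in Gys1, Phkb and Ppp1r3a, which were higher in lane 2 by log2 0.45, 0.44 and 0.50. In these bulk samples fewer fibres and less RNA per fibre cannot be told apart. Markers of skeletal muscle fibres summed to 42456 to 89441 CPM (counts scaled to a common library size) in week 4 and 68607 to 89227 CPM in PBS. The median sums were 58136 and 78978 CPM. Of these 6 markers 3 were lower in week 4 than in PBS and 0 higher, where 14.1% of all genes were lower. Of 9 fast fibre markers 4 were lower and 0 higher, but 5 had a log2 fold change above 0, and the median of the list was 0.15. Of 7 slow fibre markers 1 was lower and 0 higher, with a median of -0.50. With the lanes matched 1 of the 6 and 1 of the 9 were lower and 0 higher, where 4.58% of all genes were lower. There the fast list had a median of -0.22 and the slow list, with 0 of 7 called, one of 0.19. Of the 10 neutrophil markers 7 were tested and all 7 were higher in week 4 than in PBS, where 15.3% of all genes were higher. The filter on low counts went by group, so a gene scarce in PBS could be tested because it was high in tumour libraries. The neutrophil list summed to 56.6 to 247 CPM in week 4 and 1.65 to 15.0 CPM in PBS, where Mpo was at 0 in every library. Of 8 erythroid markers 5 were higher, and the list summed to 730 to 3412 CPM in week 4 and 231 to 1271 CPM in PBS. Against weeks 1 to 3 in lanes 2 and 4, all 7 neutrophil markers tested and 0 of 7 erythroid ones were higher in week 4, where 6.22% of all genes were. In those 12 libraries of weeks 1 to 3 the lists summed to 1.10 to 136 CPM and to 100.3 to 14764 CPM.

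A pair of libraries held the lowest levels of many of these genes. Week 3 replicate 1 was the lowest of all 38 libraries in 14 of the 35 genes, and week 4 replicate 5 in 7. Summed over the 35 genes, they held 2.17% and 3.01% of reads, where the other libraries of weeks 1 to 4 and PBS ranged from 3.38% to 5.23%. The sum was 3.78% ± 0.56 in week 4 and 4.36% ± 0.28 in PBS (SD, n = 8 each). In the course of time the medians were 4.31% in PBS, 4.79% in week 1, 4.79% in week 2, 4.34% in week 3 and 3.56% in week 4.

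**Figure D1:**
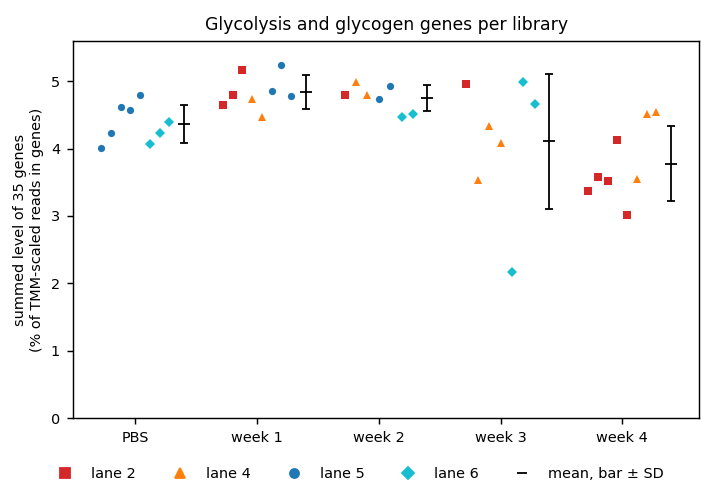
Summed level of the 35 genes as a percentage of TMM-scaled reads in genes (vertical axis) in each library of PBS and weeks 1 to 4, with the lane as symbol and the mean ± SD beside each group. Week 4 has a median of 3.56% against 4.31% in PBS, and the lowest point is week 3 replicate 1 at 2.17%.

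Levels per length show how far the muscle forms prevailed. Averaged over the 38 libraries, Aldoa, the aldolase of muscle, stood at 4148 RPKM, reads per kilobase of exon scaled to library size, rank 21 of 14636 genes, followed by the enolase Eno3 at 2471 RPKM and the glycogen phosphorylase Pygm at 1956 RPKM. At the other end were the phosphofructokinases Pfkl at 1.44 RPKM and Pfkp at 0.53 RPKM, and the hexokinase Hk1 at 1.28 RPKM. In PBS muscle Pfkm made up 99.8% ± 0.042 of the RPKM of the 3 phosphofructokinases, and Hk2 98.5% ± 0.42 of the hexokinase pair (SD, n = 8). Gapdh at 55.7 RPKM and Pgam1 at 2.42 RPKM are uncertain. Both have many near-identical pseudogene copies, and reads that fitted more than 1 place, 7.47% to 27.8% of a library's reads, were not counted.

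All 35 genes passed the filter on low counts. Among the 5 groups 18 of them differed (F test of edgeR's quasi-likelihood fit, threshold of 0.05 on the adjusted p), where 21.9% of the 14689 genes tested did. That count was 10 without week 4 replicate 3 and 11 without week 4 replicate 5. At weeks 1, 2 and 3 against PBS 0, 0 and 0 of the 35 passed, where 0.0613%, 0% and 0.347% of all genes did, while 2, 3 and 2 of the 35 lay at an unadjusted p under 0.05, beside 1274, 1143 and 1579 of all genes. DESeq2 called 0, 0 and 0 of the 35 at these weeks. At week 4 against PBS 14 passed, 3 higher and 11 lower, where 29.4% of all genes passed, 15.3% higher and 14.1% lower. Over all 35 the median log2 fold change was -0.13, against -0.02 over all genes. With the lanes matched, week 4 against weeks 1 to 3 gave 13 of 35, 1 higher and 12 lower, where 10.8% of all genes passed, 6.22% higher and 4.58% lower. Over all 35 the median was -0.31, against -0.02 over all genes. The 2 comparisons share the week 4 libraries, and 9 genes passed in both: Ppp1r3c higher, and Pfkfb1, Tpi1, Pgam2, Eno3, Pkm, Slc16a3, Phka1 and Phkg1 lower.

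These counts depended on how lane 2, which holds 5 of the 8 week 4 libraries, was treated. With a term for lane 2, 3 of the 35 passed at week 4 against PBS (5.64% of all genes), namely Ppp1r3c, Phka1 and Pkm, with a term for each lane 0 (0.633%), and without lane 2 libraries 0 (0.894%). Within lane 2 alone 22 passed at week 4 against weeks 1 to 3 (18.9% of all genes), and 18 of the 35 had groups that did not overlap, against 15.3% of all 14689 genes. Within lane 4 alone, with 3 against 7 libraries, 0 passed (0%), with 1 of the 35 at an unadjusted p under 0.05. The reference libraries from weeks 1, 2 and 3 numbered 3, 1 and 1 in lane 2 and 2, 2 and 3 in lane 4. Between these lanes, lane and the mix of weeks in the reference cannot be told apart. An edgeR test of the difference between lanes 2 and 4 called 0 of the 35 and 0 of all genes, with 14 and 1757 at an unadjusted p under 0.05. The 13 lane-matched calls also became 2, Ppp1r3c and Pfkfb1, without week 4 replicate 6. They became 7 without week 4 replicate 3, week 4 replicate 4, week 2 replicate 3 or week 3 replicate 8, and 6 or 5 without week 1 replicate 5 or 8.

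**Figure D2:**
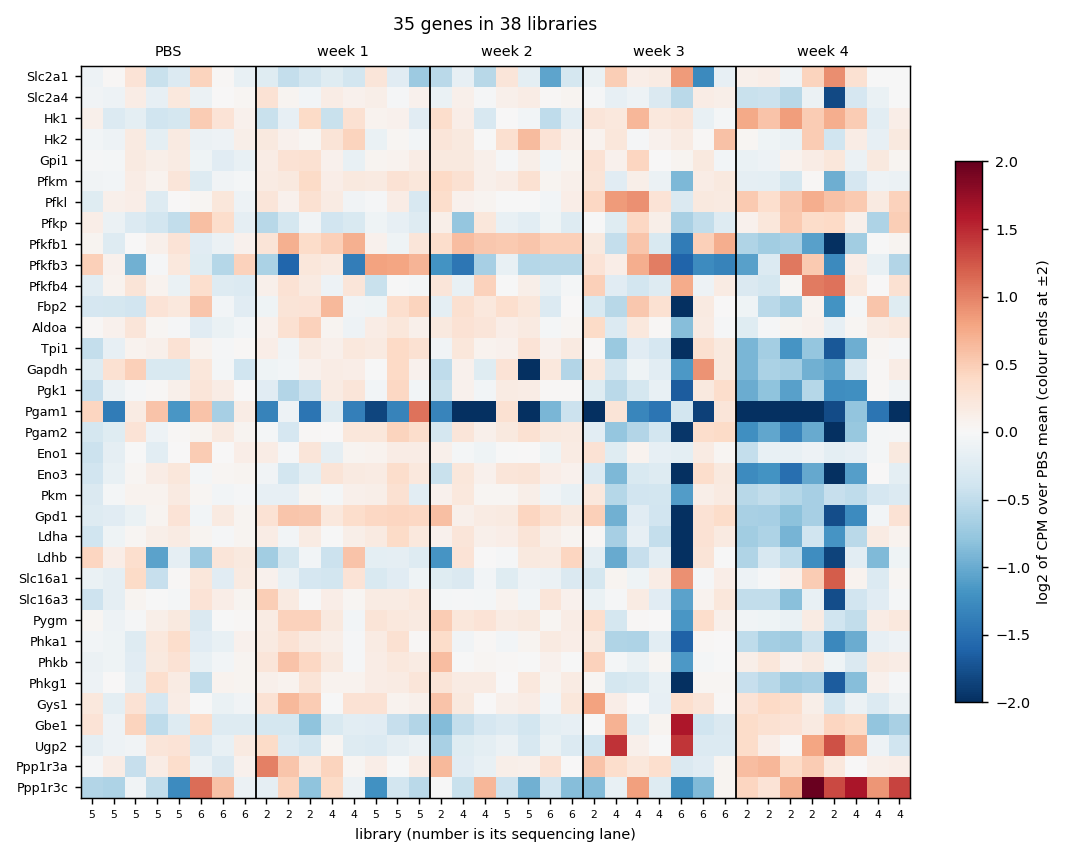
Level of each of the 35 genes (rows) in each of the 38 libraries (columns, numbered by sequencing lane), as log2 of its CPM over the PBS mean, red above and blue below. Week 3 replicate 1 (lane 6) and week 4 replicate 5 (lane 2) show as the bluest columns, and Ppp1r3c (bottom row) is red across week 4.

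**Figure D3:**
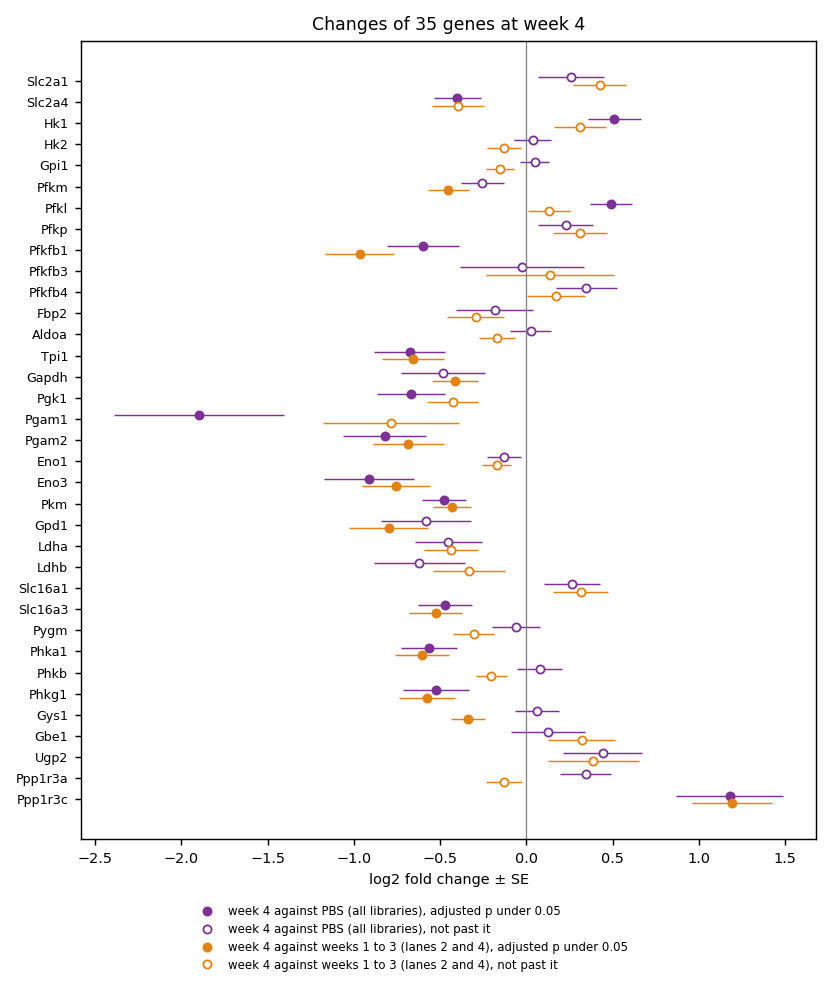
Log2 fold change ± SE (horizontal axis) of each of the 35 genes for week 4 against PBS over all libraries and for week 4 against weeks 1 to 3 in lanes 2 and 4, with filled points where the adjusted p is under 0.05. Ppp1r3c lies furthest to the right at 1.18 and 1.19, and the filled points of Eno3, Pgam2 and Tpi1 lie left of -0.6 in both.

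Ppp1r3c, the glycogen-targeting subunit of protein phosphatase 1 known as PTG (ENSMUSG00000067279, chr19:36731731-36736653, minus strand, GRCm38), which brings the phosphatase to glycogen and favours its synthesis, had the smallest p of the 35 among the 5 groups. Its lowest, median and highest levels were 583, 1049 and 1893 CPM in week 4, against 203, 395 and 1052 CPM in PBS. The groups overlapped through PBS replicates 1 and 2, at 1052 and 727 CPM. Weeks 1, 2 and 3 had medians of 401, 362 and 404 CPM, within the PBS range. At week 4 against PBS it rose 2.26-fold (log2 fold change 1.18 ± 0.31, adjusted p = 0.0055), and against weeks 1 to 3 in lanes 2 and 4 by as much (1.19 ± 0.23, adjusted p = 0.006). Both calls held with each library left out in turn, and it was the 1 gene of the 35 that passed between week 4 and week 3 (1.38 ± 0.33, adjusted p = 0.02), where 3.51% of all genes did. In lane 4 its 3 week 4 libraries, at 893, 1231 and 1498 CPM, lay above all 7 of weeks 1 to 3, at 355 to 853 CPM, and no other of the 35 was without overlap there, where 1.46% of all genes were. The rise was log2 1.28 in lane 2 and 1.11 in lane 4. Ppp1r3a, the targeting subunit of striated muscle, was at 570 ± 100 CPM in week 4 and 449 ± 80.1 CPM in PBS (SD, n = 8 each), did not pass (0.34 ± 0.15, adjusted p = 0.073) and was at -0.13 in the lane-matched comparison.

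Promoter windows are shown for Ppp1r3c, the gene that rose in both comparisons, and for 3 that fell in both, Pkm with its pair of annotated starts, Eno3 and Phka1. Each runs from 250 bases before to 50 bases after a transcript's start, from RefSeq on GRCm38.p6. Capitals mark ACGTG on either strand, the core of the hypoxia response element and of the E-box CACGTG, and the outline of a MEF2 site, which is CTA and TAG with any 4 bases between them.
Ppp1r3c (chr19:36736555-36736854, minus strand): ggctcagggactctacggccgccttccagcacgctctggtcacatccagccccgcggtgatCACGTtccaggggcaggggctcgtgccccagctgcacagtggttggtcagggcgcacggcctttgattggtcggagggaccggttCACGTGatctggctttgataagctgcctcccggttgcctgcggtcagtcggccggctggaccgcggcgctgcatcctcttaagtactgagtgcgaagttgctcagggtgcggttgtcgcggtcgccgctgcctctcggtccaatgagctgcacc
Pkm, start 1 (chr9:59656326-59656625, plus strand): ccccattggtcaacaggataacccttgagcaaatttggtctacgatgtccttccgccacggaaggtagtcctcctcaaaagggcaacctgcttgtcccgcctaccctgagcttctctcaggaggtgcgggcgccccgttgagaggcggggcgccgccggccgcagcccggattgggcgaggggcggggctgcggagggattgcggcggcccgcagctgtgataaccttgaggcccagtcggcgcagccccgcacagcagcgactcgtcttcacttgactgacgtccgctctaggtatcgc
Pkm, start 2 (chr9:59656977-59657276, plus strand): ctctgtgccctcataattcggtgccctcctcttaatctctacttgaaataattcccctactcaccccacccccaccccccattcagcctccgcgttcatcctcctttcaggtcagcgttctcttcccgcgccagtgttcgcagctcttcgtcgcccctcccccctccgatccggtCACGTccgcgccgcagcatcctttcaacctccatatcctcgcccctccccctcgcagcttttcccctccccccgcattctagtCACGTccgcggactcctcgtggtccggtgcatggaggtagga
Eno3 (chr11:70656926-70657225, plus strand): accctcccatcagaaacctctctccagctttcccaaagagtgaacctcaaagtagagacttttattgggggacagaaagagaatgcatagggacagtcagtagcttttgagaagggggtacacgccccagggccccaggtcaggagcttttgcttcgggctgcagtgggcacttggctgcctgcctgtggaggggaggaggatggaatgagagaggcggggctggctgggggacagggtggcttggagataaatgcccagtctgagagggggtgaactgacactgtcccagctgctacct
Phka1 (chrX:102644197-102644496, minus strand): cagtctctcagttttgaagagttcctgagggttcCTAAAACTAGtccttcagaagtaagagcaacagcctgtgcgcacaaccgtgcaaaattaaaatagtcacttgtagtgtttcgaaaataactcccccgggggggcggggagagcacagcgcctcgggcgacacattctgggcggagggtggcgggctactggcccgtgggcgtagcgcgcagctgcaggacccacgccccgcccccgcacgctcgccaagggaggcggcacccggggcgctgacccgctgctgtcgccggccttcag
The Ppp1r3c window holds ACGTG 3 times, counted over both strands, at -189, -104 and -103 from the start, the last 2 overlapping in 1 CACGTG. The second Pkm window holds it at -75 and at 9, the Phka1 window holds the MEF2 outline at -216, and the other windows hold neither. Of the 35 genes 33 matched the RefSeq table, with 48 windows. ACGTG was in 20 of these 48 (41.7%) and in 19.6% of all 32851 windows, CACGTG, which contains it, in 12.5% and 7.15%, the MEF2 outline in 6.25% and 3.69%, and TATAAA in 6.25% and 13.6%. All were counted on both strands and are matches of letters only.

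Among the other genes of glycogen, a pair of phosphorylase kinase subunits fell and the third was not called. Phka1 encodes the regulatory alpha subunit of muscle, and its levels were 555, 900 and 1262 CPM (lowest, median, highest) in week 4, against 1133, 1293 and 1729 CPM in PBS. All but 2 of the week 4 libraries lay below the PBS minimum. It fell to 0.676 of the PBS level (-0.56 ± 0.16, adjusted p = 0.011), and the lane-matched value was -0.61 ± 0.16, adjusted p = 0.023, a call that ended without week 4 replicate 6 (adjusted p = 0.065). Phkg1, the catalytic gamma subunit, fell too, averaging 419 ± 143 CPM in week 4 and 603 ± 100 CPM in PBS (SD, n = 8 each; -0.52 ± 0.19, adjusted p = 0.036). It shares 9.68% of its exon bases with Sumf2 on the other strand. The call of Phkg1 against PBS held in 28 of 38 fits with a library left out, the others being without week 4 replicates 2 to 6 or PBS replicates 2, 4, 6, 7 or 8. Its lane-matched call held in 13 of 20 such fits. Phkb, the beta subunit, was at 660 ± 74.0 and 626 ± 79.1 CPM in week 4 and PBS and did not pass (0.08 ± 0.13, adjusted p = 0.69).

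Pygm, the muscle phosphorylase, had 4211, 5652 and 6870 CPM in week 4, against 4894, 5986 and 6821 CPM in PBS, with overlapping ranges (-0.06 ± 0.14, adjusted p = 0.77). Against the 12 lane-matched libraries, at 4662, 6895 and 8439 CPM, it was at -0.31 ± 0.12, adjusted p = 0.095. Gys1, the glycogen synthase of muscle, had 234, 304 and 400 CPM in week 4, against 239, 294 and 368 CPM in PBS (0.06 ± 0.13, adjusted p = 0.76). In the lane-matched comparison Gys1 fell (-0.34 ± 0.10, adjusted p = 0.035), against 270, 357 and 527 CPM in weeks 1 to 3, and that call held in 13 of 20 fits with a library left out. Gbe1, the branching enzyme, and Ugp2, which makes the UDP-glucose that is added to glycogen, differed among the 5 groups (adjusted p = 0.028 and 0.036). Their highest levels were in week 3 replicate 1 for Gbe1, at 248 CPM, and in week 3 replicate 5 for Ugp2, at 2783 CPM. At week 4 neither passed (Gbe1 0.13 ± 0.21, adjusted p = 0.69, and Ugp2 0.44 ± 0.23, adjusted p = 0.14).

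Glucose entry and its trapping gave unlike results. Slc2a4, the insulin-responsive transporter GLUT4, had 139, 372 and 486 CPM in week 4, against 432, 476 and 562 CPM in PBS. It was lower at week 4 (-0.40 ± 0.14, adjusted p = 0.025), and -0.28 without week 4 replicate 5, which held the lowest value, with the call kept. The lane-matched value was nearly equal but did not pass (-0.40 ± 0.15, adjusted p = 0.085). Slc2a1, the transporter GLUT1 found in most cells, averaged 9.34 ± 2.42 CPM in week 4 and 7.78 ± 1.58 CPM in PBS and did not pass (0.26 ± 0.19, adjusted p = 0.31). Hk2, the main hexokinase of muscle, showed no detectable difference: 344, 446 and 642 CPM in week 4, and 397, 430 and 516 CPM in PBS (0.04 ± 0.11, adjusted p = 0.83). Hk1, its low-abundance partner, had 8.51, 14.3 and 17.6 CPM in week 4, against 7.43, 9.48 and 14.1 CPM in PBS, and rose (0.51 ± 0.15, adjusted p = 0.012). With the lanes matched its value was 0.31 ± 0.15, adjusted p = 0.17, and lane 4 alone gave 0.02.

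At the phosphofructokinase step, the main control point of glycolysis, the scarce liver form rose against PBS and the muscle form fell with the lanes matched. Pfkl had 9.29, 11.8 and 13.5 CPM in week 4, against 6.88, 8.33 and 9.63 CPM in PBS (0.49 ± 0.12, adjusted p = 0.0034). All but 1 of the week 4 libraries were above the PBS maximum. In lanes 2 and 4 its difference was 0.13 ± 0.12, adjusted p = 0.48, beside weeks 1 to 3 at 7.82, 9.80 and 15.5 CPM, the top of which were 2 week 3 libraries. At week 3 Pfkl did not pass against PBS, but did with 4 libraries left out together, week 3 replicate 1 among them (0.56, adjusted p = 0.012). Pfkm had 1606, 2779 and 3234 CPM in week 4, against 2646, 3070 and 3742 CPM in PBS (-0.25 ± 0.12, adjusted p = 0.11). With the lanes matched Pfkm fell (-0.45 ± 0.12, adjusted p = 0.024), against 2720, 3589 and 4188 CPM in weeks 1 to 3, a call that ended without week 4 replicate 6 or week 1 replicate 8. It shares 10.8% of its exon bases with other genes. Pfkp, the platelet form, was at 0.23 ± 0.16, adjusted p = 0.28.

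The bifunctional enzymes that set fructose 2,6-bisphosphate, the activator of phosphofructokinase, are coded by Pfkfb1, Pfkfb3 and Pfkfb4. Pfkfb1, found in liver and muscle (ENSMUSG00000025271, chrX:150588229-150643878, plus strand, GRCm38), had medians of 57.4 CPM in PBS, 70.2 in week 1, 80.9 in week 2, 64.8 in week 3 and 35.5 CPM in week 4. The week 2 libraries, at 72.2 to 86.6 CPM, lay wholly above PBS, at 47.3 to 68.2 CPM, the 1 gene of the 35 without overlap at that week, against 0.197% of all genes, but the test did not pass (0.51 ± 0.22, adjusted p = 0.56). The authors' deposited table of week 2 over PBS lists it as higher, at log2 0.48. At week 4 its lowest, median and highest levels were 13.5, 35.5 and 58.4 CPM, and it fell against PBS (-0.60 ± 0.21, adjusted p = 0.03), a call that ended without week 4 replicate 3, 4 or 5 or PBS replicate 8. Against weeks 1 to 3 in lanes 2 and 4, at 40.5, 75.7 and 92.6 CPM, it fell to 0.512 of their level (-0.97 ± 0.20, adjusted p = 0.0096), and this call held with each of the 20 libraries left out. Pfkfb3 spread widely in every group, with 255 to 1283 CPM in week 4 and 317 to 860 CPM in PBS (-0.02 ± 0.36, adjusted p = 0.97). Pfkfb4 was at 0.35 ± 0.18, adjusted p = 0.13, and Fbp2, the fructose bisphosphatase of muscle, at -0.18 ± 0.22, adjusted p = 0.56.

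Below phosphofructokinase, 6 genes of the lower pathway fell at week 4 against PBS: Tpi1, Pgk1, Pgam1, Pgam2, Eno3 and Pkm. Eno3, the muscle enolase, had 1015, 2180 and 4868 CPM in week 4, against 3712, 4950 and 5668 CPM in PBS. It fell to 0.531 of the PBS level (-0.91 ± 0.26, adjusted p = 0.0093), and the lane-matched value was -0.76 ± 0.20, adjusted p = 0.024. The difference from weeks 1 to 3 was -1.13 in lane 2 and -0.31 in lane 4, and the lane-matched call ended without week 4 replicate 6 (adjusted p = 0.066). Pgam2, the muscle phosphoglycerate mutase, had 211, 584 and 1174 CPM in week 4, against 934, 1221 and 1443 CPM in PBS (-0.82 ± 0.24, adjusted p = 0.011, and lane-matched -0.68 ± 0.21, adjusted p = 0.04). The 2 highest week 4 libraries, in lane 4, lay inside the PBS range and the other 6 below it. The lane-matched call of Pgam2 held in 5 of 20 fits with a library left out.

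Tpi1, triosephosphate isomerase, had 541, 981 and 1799 CPM in week 4, against 1264, 1812 and 2144 CPM in PBS (-0.68 ± 0.21, adjusted p = 0.013, and lane-matched -0.66 ± 0.18, adjusted p = 0.029). The lane-matched call of Tpi1 held in 15 of 20 fits with a library left out. Pkm, the pyruvate kinase of muscle and most other tissues, had 2073, 2332 and 2741 CPM in week 4, against 2694, 3318 and 3740 CPM in PBS. Only the highest week 4 library, replicate 8, reached into the PBS range. Pkm fell to 0.718 of the PBS level (-0.48 ± 0.13, adjusted p = 0.0056, and lane-matched -0.43 ± 0.11, adjusted p = 0.023), with -0.56 in lane 2 and -0.26 in lane 4, and without week 4 replicate 6 the lane-matched adjusted p was 0.06. Pgk1, phosphoglycerate kinase, had 446, 564 and 1065 CPM in week 4, against 761, 1061 and 1237 CPM in PBS (-0.67 ± 0.20, adjusted p = 0.012), and with the lanes matched it did not pass (-0.43 ± 0.15, adjusted p = 0.061). Pgam1, at 2.08 ± 1.19 CPM in week 4 and 7.77 ± 3.52 CPM in PBS (SD, n = 8 each), was called at -1.90 ± 0.49, adjusted p = 0.0051, on the few reads that could be placed.

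Steps without a call at week 4 against PBS stand among these. Aldoa averaged 11695 ± 1216 CPM in week 4 and 11494 ± 1128 CPM in PBS (0.02 ± 0.12, adjusted p = 0.89), and Gpi1, glucose phosphate isomerase, 651 ± 64.7 and 630 ± 64.5 CPM (0.05 ± 0.08, adjusted p = 0.69; SD, n = 8 each). Eno1, the enolase of most tissues, was at -0.13 ± 0.10, adjusted p = 0.34. Gapdh, the glyceraldehyde phosphate dehydrogenase, had 119, 158 and 275 CPM in week 4, against 188, 224 and 346 CPM in PBS (-0.48 ± 0.24, adjusted p = 0.13). Its lane-matched fall (-0.42 ± 0.13, adjusted p = 0.049) held in 6 of 20 fits with a library left out and was 0.02 in lane 4. Gpd1, which turns a glycolytic intermediate into glycerol 3-phosphate, averaged 321 ± 141 CPM in week 4 and 481 ± 62.9 CPM in PBS (-0.58 ± 0.26, adjusted p = 0.089). With the lanes matched Gpd1 fell (-0.80 ± 0.23, adjusted p = 0.034), a call that held in 11 of 20 fits with a library left out. It shares 12.97% of its exon bases with an antisense gene, and whether the counting used strand is not stated.

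Of the genes of lactate, Ldha, the lactate dehydrogenase subunit that prevails in fast muscle, had 1009, 1526 and 2560 CPM in week 4, against 1732, 2351 and 2551 CPM in PBS. It did not pass in either comparison (-0.45 ± 0.20, adjusted p = 0.078, and lane-matched -0.44 ± 0.16, adjusted p = 0.073). Its value was -0.81 in lane 2 and 0.01 in lane 4. Ldhb, the heart subunit, was at -0.62 ± 0.26, adjusted p = 0.071. Slc16a3, the lactate exporter MCT4 of fast fibres, had 83.3, 211 and 279 CPM in week 4, against 215, 290 and 345 CPM in PBS, and fell (-0.47 ± 0.16, adjusted p = 0.022, and lane-matched -0.53 ± 0.15, adjusted p = 0.037). The call against PBS ended without week 4 replicate 3 (adjusted p = 0.052), and the lane-matched call held in 13 of 20 fits with a library left out. Slc16a1, the transporter MCT1, was at 0.26 ± 0.16, adjusted p = 0.22, with its highest week 4 level, 92.5 CPM, in replicate 5.

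**Figure D4:**
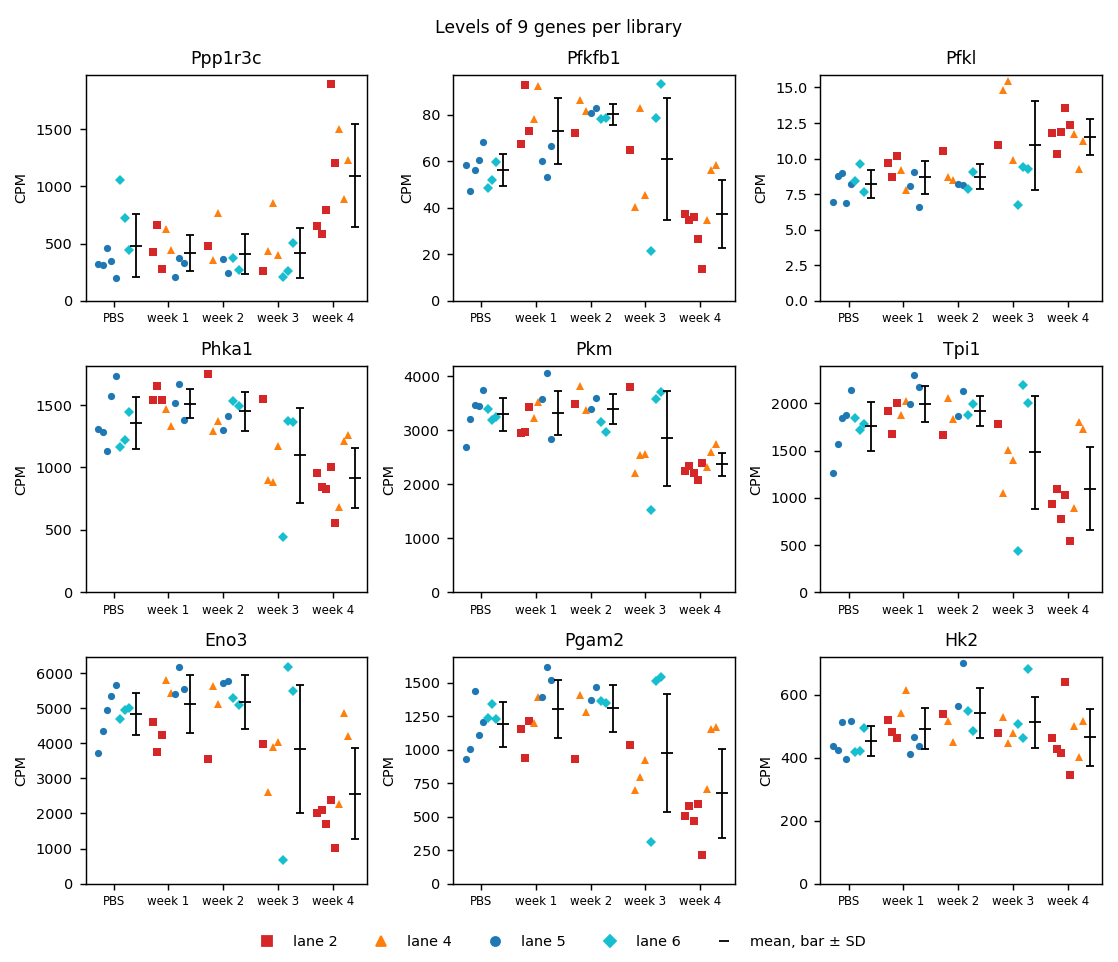
CPM per library (vertical axes from 0) of 9 of the genes in PBS and weeks 1 to 4, with the lane as symbol and the mean ± SD beside each group. Week 4 of Ppp1r3c reaches 1893 CPM, week 4 of Eno3 has its lane 2 libraries between 1015 and 2373 CPM, and Hk2 shows overlapping groups throughout.

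Pairs of genes were compared as the log2 ratio of their CPM, with 0.5 CPM added, by a 2-sided exact permutation test adjusted over the 9 pairs. All pairs but Gys1/Pygm, which sets glycogen synthase beside phosphorylase, code for forms of the same protein. In 4 pairs the ratio shifted at week 4 towards the widespread form, away from the muscle form, both against PBS and with the lanes matched. Of the widespread forms in these pairs only Pfkl was itself called higher against PBS, and none was with the lanes matched. The muscle forms called lower were Eno3, Slc2a4 and Slc16a3 against PBS, and Eno3, Slc16a3 and Pfkm with the lanes matched. Pfkl/Pfkm was -7.77 ± 0.38 in week 4 and -8.51 ± 0.23 in PBS (SD, n = 8 each), a difference of 0.74 (exact permutation, adjusted p = 0.0042), with 8 of 8 week 4 libraries above the PBS mean. Its lane-matched difference was 0.61 (exact permutation, adjusted p = 0.0085). Eno1/Eno3 was -5.43 ± 0.63 in week 4 and -6.38 ± 0.26 in PBS, a difference of 0.94 (adjusted p = 0.0091), with 7 of 8 libraries above the PBS mean and a lane-matched difference of 0.63 (adjusted p = 0.0065). The transporter ratios did the same: Slc2a1/Slc2a4 by 0.71 (adjusted p = 0.018, 8 of 8 libraries) and lane-matched 0.84 (adjusted p = 0.0065), and Slc16a1/Slc16a3 by 0.75 (adjusted p = 0.018, 7 of 8) and lane-matched 0.84 (adjusted p = 0.0065).

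Without week 4 replicate 5 the differences from PBS were 0.63 for Pfkl/Pfkm, 0.78 for Eno1/Eno3, and 0.43 for both Slc2a1/Slc2a4 and Slc16a1/Slc16a3, with adjusted p = 0.0084, 0.014, 0.035 and 0.039. Without lane 2 libraries, with 3 left in week 4, they were 0.55, 0.44, 0.27 and 0.17, and no pair passed. Within lane 4 alone, with 3 libraries of week 4 and 7 of weeks 1 to 3, the differences were 0.31, 0.41, 0.28 and 0.21, with overlapping ranges and no test. The Slc16a1/Slc16a3 call against PBS also ended without PBS replicate 2 or 7 (adjusted p = 0.055 and 0.058). By mean level per length the muscle forms still prevailed at week 4: Pfkm made up 99.7% ± 0.099 of its family's RPKM, Eno3 99.2% ± 0.37, Slc2a4 97.0% ± 2.6 and Slc16a3 76.6% ± 14.0 (SD, n = 8). The widespread forms are also expressed by blood and vessel cells. Endothelial markers summed to 265 to 454 CPM in week 4 and 224 to 315 CPM in PBS, with 3 of 5 higher. Macrophage markers summed to 135 to 240 CPM in week 4 and 81.1 to 1090 CPM in PBS, with 1 of 10 lower. The median macrophage sum was 196 CPM in week 4 and 123 CPM in PBS, so the PBS maximum lay far from its median. With the lanes matched 8 of 10 macrophage markers and 1 of 5 endothelial ones were higher in week 4, beside sums of 67.0 to 185 CPM and 232 to 345 CPM in weeks 1 to 3. The part of these cells, and of the neutrophil and erythroid transcripts given above, in the ratios was not tested.

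Hk1/Hk2 and Pfkp/Pfkm passed with the lanes matched (0.46, adjusted p = 0.044, and 0.76, adjusted p = 0.0065) but not against PBS (0.47, adjusted p = 0.078, and 0.50, adjusted p = 0.11). Pgam1/Pgam2 (-0.68, adjusted p = 0.16), Ldhb/Ldha (-0.13, adjusted p = 0.68) and Gys1/Pygm (0.12, adjusted p = 0.49) passed in neither comparison, but Pgam1/Pgam2 passed against PBS without week 4 replicate 5 (-0.93, adjusted p = 0.049).

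**Figure D5:**
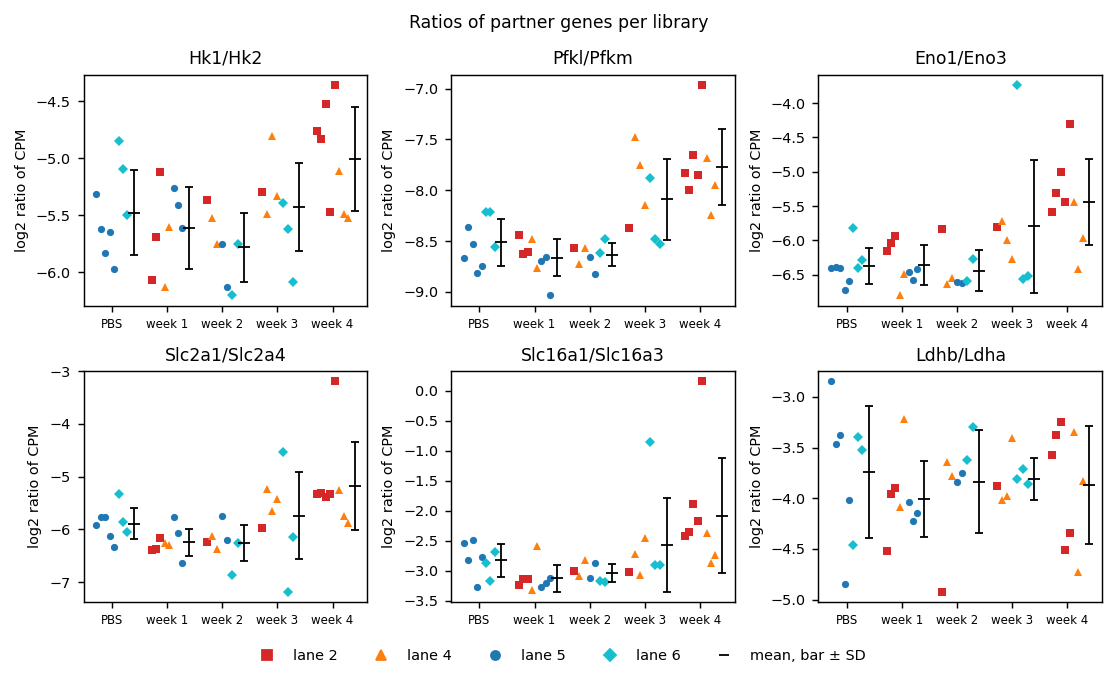
Log2 ratio of CPM (vertical axes, each with its own range) of 6 pairs of partner genes in each library of PBS and weeks 1 to 4, with the lane as symbol and the mean ± SD beside each group. The Pfkl/Pfkm mean is -7.77 in week 4 and -8.51 in PBS, and Ldhb/Ldha overlaps across the groups.

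Around these 35, another 41 genes of glucose and glycogen use were followed, of which 34 were tested. At week 4 against PBS 5 of them were higher and 7 lower, where 15.3% and 14.1% of all genes were. With the lanes matched 4 of 33 were higher and 5 lower, where 6.22% and 4.58% of all genes were. Those of smallest p were Gaa, the lysosomal glucosidase that degrades glycogen (465 ± 170 CPM in week 4 and 231 ± 26.8 CPM in PBS, log2 1.01 ± 0.19, adjusted p = 0.00035), and Gsk3b, a kinase that inhibits glycogen synthase (0.56 ± 0.13, adjusted p = 0.0023). Next was the phosphoglucomutase gene Pgm2, at only 4.01 ± 0.44 CPM in week 4 and 2.56 ± 0.44 CPM in PBS (0.64 ± 0.15, adjusted p = 0.0025). The far more abundant phosphoglucomutase gene Pgm1 went the other way, at 711 ± 284 CPM in week 4 and 1090 ± 186 CPM in PBS. After Pgm2 came the liver phosphorylase Pygl, at 5.35 ± 1.98 CPM in week 4 and 2.51 ± 1.75 CPM in PBS (1.07 ± 0.27, adjusted p = 0.0047). Mpc2, a subunit of the mitochondrial pyruvate carrier, fell to 65.8 ± 36.5 CPM in week 4, against 123 ± 24.7 CPM in PBS (-0.91 ± 0.23, adjusted p = 0.0047), and Ldhd, the D-lactate dehydrogenase, fell by 0.49 on the log2 scale (adjusted p = 0.013). With the lanes matched Gaa (0.55 ± 0.16, adjusted p = 0.036) and Pygl (0.93 ± 0.22, adjusted p = 0.019) passed, and Gsk3b, Pgm2, Mpc2 and Ldhd did not.

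Of 7 regulators of the pathway 4 were higher at week 4 than in PBS and 0 lower, where 15.3% and 14.1% of all genes were. Hif1a, the hypoxia-inducible factor that activates glycolytic genes, averaged 41.0 ± 8.14 CPM in week 4 and 24.5 ± 5.21 CPM in PBS (SD, n = 8 each; 0.74 ± 0.13, adjusted p = 0.00011). Mlxip, a glucose-sensing factor, averaged 182 ± 34.6 and 120 ± 9.67 CPM (0.60 ± 0.12, adjusted p = 0.00075). Both also passed with the lanes matched, where 2 of the 7 were higher beside 6.22% of all genes (0.51 ± 0.10, adjusted p = 0.0088, and 0.36 ± 0.10, adjusted p = 0.029). Tbc1d1, which restrains GLUT4 at rest, and Prkaa2, a catalytic subunit of the energy sensor AMPK, were higher against PBS (0.91 ± 0.21, adjusted p = 0.0026, and 0.54 ± 0.14, adjusted p = 0.0041), but were at 0.06 and 0.12 with the lanes matched and did not pass. Txnip, an inhibitor of glucose uptake, its relative Arrdc4, and Tbc1d4 did not pass in either comparison, with 0.11, 0.37 and 0.39 against PBS.

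In weeks 1 to 3, where 0 of the 35 passed, the levels below give the lowest, median and highest library of each week, and the PBS and week 4 levels stand above. Week 3 replicate 1 held the lowest value of its week in each gene described by library, Pfkfb1, Pfkl and Ppp1r3c included, except Hk1, Hk2 and Gys1. Eno3 had 3761, 5431 and 6175 CPM in week 1, 3551, 5303 and 5792 CPM in week 2, and 681, 3994 and 6180 CPM in week 3. Pgam2 had 942, 1306 and 1621 CPM in week 1, 933, 1368 and 1467 CPM in week 2, and 308, 926 and 1548 CPM in week 3. In both the medians of weeks 1 and 2 lay above that of PBS and the median of week 3 below it. Tpi1 had 1677, 1995 and 2304 CPM in week 1, 1665, 1872 and 2133 CPM in week 2, and 440, 1506 and 2194 CPM in week 3. Pgk1 had 702, 1006 and 1404 CPM in week 1, 773, 1069 and 1174 CPM in week 2, and 331, 887 and 1344 CPM in week 3. Pkm had 2842, 3326 and 4065 CPM in week 1, 2977, 3394 and 3814 CPM in week 2, and 1517, 2552 and 3808 CPM in week 3. The week 3 medians of these 3 genes were also below their PBS medians, with ranges that overlapped. Gapdh had 232, 262 and 327 CPM in week 1, 47.3, 209 and 299 CPM in week 2, and 112, 234 and 463 CPM in week 3. Ldha had 2191, 2538 and 2965 CPM in week 1, 2356, 2478 and 2738 CPM in week 2, and 484, 2034 and 2783 CPM in week 3. Slc16a3 had 284, 319 and 401 CPM in week 1, 275, 281 and 337 CPM in week 2, and 137, 280 and 335 CPM in week 3. The lowest Gapdh level of all was in week 2 replicate 2.

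The genes of the upper pathway and of glycogen likewise did not pass in these weeks. Pfkm had 3479, 3628 and 4148 CPM in week 1, 3286, 3515 and 4188 CPM in week 2, and 1693, 3450 and 3782 CPM in week 3. Pfkl had 6.59, 8.89 and 10.2 CPM in week 1, 7.89, 8.50 and 10.5 CPM in week 2, and 6.72, 9.88 and 15.5 CPM in week 3. At week 3 Pfkl had the smallest p of the 35 (0.41 ± 0.12, adjusted p = 0.17). Hk1 had 7.21, 9.54 and 12.8 CPM in week 1, 6.93, 9.51 and 12.6 CPM in week 2, and 8.89, 11.4 and 15.5 CPM in week 3. Hk2 had 413, 474 and 617 CPM in week 1, 451, 539 and 701 CPM in week 2, and 446, 479 and 682 CPM in week 3. Slc2a4 had 466, 516 and 592 CPM in week 1, 444, 503 and 538 CPM in week 2, and 336, 455 and 540 CPM in week 3. All 3 overlapped PBS in every week. Phka1 had 1333, 1526 and 1666 CPM in week 1, 1291, 1410 and 1749 CPM in week 2, and 444, 1172 and 1550 CPM in week 3. Pygm had 5708, 6839 and 8192 CPM in week 1, 6106, 6809 and 8439 CPM in week 2, and 2652, 6078 and 7603 CPM in week 3. Gys1 had 301, 368 and 472 CPM in week 1, 292, 334 and 451 CPM in week 2, and 270, 333 and 527 CPM in week 3. Its highest library of each week was in lane 2, the lane in which Gys1 was called higher within these weeks.

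Weeks 1 to 3 were also set against PBS within lanes 5 and 6, with 10 and 8 libraries. There 0 of the 35 passed, where 0% of the 13675 genes tested did and 668 lay at an unadjusted p under 0.05, and DESeq2 called 0 of the 35. Ppp1r3c had 314 ± 92.4 CPM in these libraries of weeks 1 to 3 and 483 ± 277 CPM in PBS (log2 fold change -0.58 ± 0.23, adjusted p = 0.97). All others of the 35 lay within 0.31 of PBS on the log2 scale there, apart from Pgam1 at -0.39. In the authors' deposited tables, that of week 4 over PBS lists 15 of the 35 among 4313 genes, 4 higher and 11 lower. These include Ppp1r3a, Gpd1 and Ldha, which did not pass here, and leave out Slc2a4 and Slc16a3, which did. The tables of week 4 over week 1 and over week 2 list 23 and 19 of the 35, among 3336 and 3388 genes. Of the 35, that of week 4 over week 3 lists Ppp1r3c alone, that of week 1 over PBS Gpd1 alone, and that of week 3 over PBS none.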

How the data were processed

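Gene expression was measured by RNA sequencing of gastrocnemius muscle in 38 libraries, 8 each of PBS, week 1 and week 4 and 7 each of weeks 2 and 3. Replicate 2 of week 3 is not analysed here. RNA was taken up in Trizol and libraries were made with a TruSeq kit, per the labels' protocols. The deposited values are raw counts of reads per gene, with FastQC, HISAT2, HTSeq, DESeq2 and GRCm38.p5 named in the submitters' processing notes without versions. Whether HTSeq counted by strand is not stated. The authors also deposited tables of their own comparisons, which hold log2 fold changes, p-values and adjusted p-values per the file headers.

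Genes were named from GENCODE M21, which matched 45229 of the 46078 IDs. Reads outside genes took no part: 44.5% to 80.9% of reads were in genes, 3.80% to 10.6% in none, 2.78% to 11.0% in several genes and 7.47% to 27.8% in several places. Counts were tested with edgeR 4.0.16 (R 4.3.3): TMM scaling, a minimum count of 10 in filterByExpr, 5 groups in 1 quasi-likelihood fit of 14689 genes, and Benjamini-Hochberg adjustment over all of them with a threshold of 0.05. SE was taken as the absolute log2 fold change divided by the square root of the F statistic. CPM are on TMM-scaled libraries, and RPKM divide them by exon length. Lane-matched fits held 14000 genes (lanes 2 and 4) and 13675 genes (lanes 5 and 6), with a lane term. Log2 ratios of gene pairs were compared by exact 2-sided permutation of libraries (scipy 1.17.1), within lanes where lanes were matched. Counts were also simulated for all 38 libraries, with some genes changed in week 4 and no lane effect. On these the week 4 against PBS test recovered 30 of 99 genes changed 1.5-fold and 66 of 100 changed 2-fold, with 2 false calls. Far fewer genes were changed there than were called in the data, so recovery in the data may differ, and false calls from lane were not simulated.

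No 2 libraries of a group were duplicates: chi-square per degree of freedom was at least 13. Alternatives were other scaling (RLE), no filter, DESeq2 1.42.0, lane terms, leaving out lane 2, single libraries or 4 libraries together (week 3 replicates 1 and 3, week 2 replicate 6 and week 1 replicate 7, the first 3 with over 8% of reads in no gene). Week 1 replicate 7, with 5.55% of reads in no gene, was under that limit and was picked by name. Lane 4 alone for the ratios and the test of lane 2 against lane 4 were chosen after seeing the data. The lane-matched tests of the ratios were not among the comparisons planned first. Nor were the fits of week 4 against week 3 and of lane 2 against other lanes. All 35 genes are reported. Library values are given for the 10 of smallest p among the 5 groups and for 9 others of central steps. Other genes of the pathway were named as the 6 of smallest p, with Pgm1 given beside Pgm2. The genes and lists were chosen with earlier results of these data known.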

Additional observations from a re-analysis of the deposited data

Results flagged for a closer look

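In each group of 7 or 8 libraries the highest and lowest CPM of each of the 35 genes, and of their sum, were set against the rest by Dixon's test. Of 180 such tests 24 stood apart, where chance gives about 1 in 20. Of these 24, 14 were in 3 libraries, week 2 replicate 3, week 4 replicate 5 and week 3 replicate 1, and the other 10 were spread over 9 libraries.

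Week 4 replicate 5, in lane 2, stood apart in 4 genes. It was high in Slc2a1 (14.7 CPM) and Slc16a1 (92.5 CPM), and low in Slc2a4 (139 CPM) and Pfkm (1606 CPM). Week 4 replicate 7 was low in Pfkp (4.75 CPM).

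Week 2 replicate 3 stood apart in 7 genes. It was low in Pgk1 (773 CPM), Pgam2 (933 CPM), Eno3 (3551 CPM), Ldhb (79.0 CPM) and Ugp2 (653 CPM), and high in Phkb (959 CPM) and Gys1 (451 CPM).

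Week 3 replicate 1 was high in Slc16a1 (75.4 CPM) and Gbe1 (248 CPM), and low in Phkg1 (136 CPM). Among the other week 3 libraries, replicate 6 was high in Hk1 (15.5 CPM), replicate 4 in Hk2 (682 CPM) and replicate 8 in Gys1 (527 CPM).

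In week 1, replicate 4 was high in Slc16a3 (401 CPM) and Ugp2 (1333 CPM), replicate 1 in Slc2a1 (9.19 CPM), replicate 3 in Ldhb (266 CPM), replicate 6 in Gapdh (327 CPM) and replicate 7 in Pgam1 (16.4 CPM).

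The difference of Ppp1r3c from PBS was larger at week 4 than at week 3 by 1.38 on the log2 scale (edgeR quasi-likelihood, adjusted p = 0.02). It was the 1 gene of the 35 for which the test between these 2 weeks passed, where 3.51% of all genes did.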

How the results depend on the processing

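The settings that dealt with lane moved the counts of genes called among the 35 the most. Leaving out lane 2 left 3 libraries in week 4, and week 4 and PBS shared no lane. In these settings an effect of lane and a less sensitive test cannot be told apart. Among the 5 groups, 18 (21.9% of all genes) became 10 with a term for lane 2 (11.2%), 3 with a term for each lane (4.85%) and 0 without lane 2 libraries (1.6%). For week 4 against PBS, 14 became 3, 0 and 0 under the same settings, and for the lane-matched comparison 13 became 22 in lane 2 alone and 0 in lane 4 alone. Week 3 against PBS had 0, and 1 with 4 libraries left out together. With libraries left out in turn these counts ranged from 10 to 20 among the 5 groups, 11 to 17 at week 4, 0 to 1 at week 3 and 2 to 19 with the lanes matched. RLE scaling, DESeq2 and no filter gave 14, 14 and 11 at week 4.

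With weeks 1 to 3 of lanes 2 and 4 in place of PBS the ratio differences were 0.46 for Hk1/Hk2, 0.76 for Pfkp/Pfkm, 0.22 for Pgam1/Pgam2, 0.12 for Ldhb/Ldha and -0.02 for Gys1/Pygm. Without lane 2 they were 0.55 for Pfkl/Pfkm, 0.44 for Eno1/Eno3, 0.17 for Slc16a1/Slc16a3, 0.27 for Slc2a1/Slc2a4 and -0.11 for Gys1/Pygm. Leaving out libraries gave 0.38 to 0.56 for Hk1/Hk2, 0.63 to 0.81 for Pfkl/Pfkm, 0.37 to 0.64 for Pfkp/Pfkm, -0.93 to -0.54 for Pgam1/Pgam2, 0.78 to 1.08 for Eno1/Eno3, -0.28 to 0.0019 for Ldhb/Ldha, 0.43 to 0.86 for Slc16a1/Slc16a3, 0.43 to 0.81 for Slc2a1/Slc2a4 and 0.06 to 0.20 for Gys1/Pygm.

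Genes that did not pass at week 4 against PBS changed sign as follows. With a lane 2 term Gpi1 was at -0.02, Pfkfb3 0.15, Aldoa -0.03, Phkb -0.12 and Gys1 -0.21. With a term for each lane Gpi1 was at -0.06, Pfkfb3 0.16, Aldoa -0.10, Phkb -0.20, Gys1 -0.16 and Ppp1r3a -0.05. Without lane 2 Fbp2 was at 0.13, Eno1 0.0019, Slc16a1 -0.05, Gys1 -0.17 and Gbe1 -0.25. In lane 4 alone, against weeks 1 to 3, Pfkfb3 was at -0.24, Aldoa 0.05, Gapdh 0.02, Eno1 0.07, Ldha 0.01, Slc16a1 -0.03, Gbe1 -0.20 and Ugp2 -0.12. With libraries left out Hk2 ranged between -0.04 and 0.09, Pfkfb3 between -0.27 and 0.09 and Aldoa between -0.0036 and 0.06 against PBS, and Pfkfb3 between -0.10 and 0.25 with the lanes matched. The cause was not tested. No paired analysis was possible because the labels number each sample separately, and the replicate numbers used here only name samples in accession order. Genes at a few CPM, such as Pfkp, rest on fewer reads than the abundant ones.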
